A study of Odorrana tormota with 4 samples.

Results

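The carbonic anhydrases are a family of zinc enzymes, and 10 members of it were followed in brain RNA of the concave-eared frog *O. tormota*, from 2 pools of females (F1 and F2) and 2 pools of males (M1 and M2). A unigene, that is an assembled transcript, was assigned to a member when the gene symbol of its best Swiss-Prot match was *CA2*, *CA3*, *CA4*, *CA5B*, *CA7*, *CA8*, *CA10*, *CA11*, *CA12* or *CA14*. Unigenes whose best match in the NR protein database named the chicken or turkey genus were dropped. Of the 197684 unigenes in the table, 14 were kept for 9 of the 10 symbols, and 2 were dropped. No unigene was assigned to *CA11* by this rule. FPKM (fragments scaled by transcript length and by library size, a level per length) was summed over the unigenes of a gene, for these members as for all 16911 gene symbols.

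All frogs were wild-caught, untreated adults. F1 and F2 held equal amounts of RNA from 2 females each, and M1 and M2 from 4 males each, so sex and the number of frogs in a pool cannot be told apart. The series was made because males of this species hear ultrasound and females do not, and it has no control group beyond the other sex. A spread is therefore a spread between 2 pools, and the reads behind a single value are unknown.

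Carbonic anhydrases turn carbon dioxide and water into bicarbonate and a proton, and back. In vertebrate brains they set the pH inside and around neurons and glia, and they feed bicarbonate to transporters that move it across membranes and into the cerebrospinal fluid. Some members have lost residues that hold the zinc and do not catalyse the reaction. These are the carbonic anhydrase-related proteins *CA8*, *CA10* and *CA11*, called inactive here, and in mammals they are known as binding proteins of neurons.

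The pools held neuronal RNA and differed in the levels of pituitary and skeletal muscle marker genes. The synaptic gene *SNAP25* stood between 720 and 958 FPKM in the 4 pools, whereas the axonal *NEFM* ranged from 69.0 in F2 to 133 in M1, and *ELAVL4* was 0 in F1 and F2 and under 1 FPKM in M1 and M2. The 4 pituitary hormone genes *PRL*, *GH*, *CGA* and *POMC* summed to 69.0 FPKM in F1 and 5788 in F2, and to 1506 in M1 and 925 in M2. Skeletal muscle genes summed to 2.41 FPKM in F1 and 342 in F2, and to 7.17 in M1 and 18.8 in M2, and *TNNT3* among them was 0 in F1 and F2. F2 thus stood apart from F1 in both lists, and differences of tested members that rest on F2 are given with and without it.

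The brain held carbonic anhydrase RNA mostly as the cytosolic *CA2* and the inactive *CA10*. *CA2* was highest in every pool, between 142 and 276 FPKM, and made up 66.1% to 77.2% of the FPKM summed over the members. Among all gene sums it ranked 206th in F1, 180th in F2, 251st in M1 and 338th in M2. *CA10* came second, between 38.7 and 47.6 FPKM, and *CA8* next, between 10.4 and 18.9 FPKM. The ranges of *CA2*, *CA10* and *CA8* did not overlap. For *CA10* this holds for the sum of its 3 unigenes, which carry 2 names in NR. Those named related protein 11, from 18.0 to 26.7 FPKM, overlapped *CA8*. The unigene named related protein 10, from 20.0 to 21.6 FPKM, did not. *CA5B*, the mitochondrial form, ranged from 5.96 to 10.5 FPKM and overlapped *CA8* above it and *CA14* below it. *CA14*, an enzyme that spans the cell membrane, ranged from 3.16 to 6.46 FPKM and stayed above *CA3*. *CA3*, *CA12*, *CA7* and *CA4* formed a low group, each overlapping its neighbour, with 3.06 FPKM as the highest value.

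**Figure D1:**
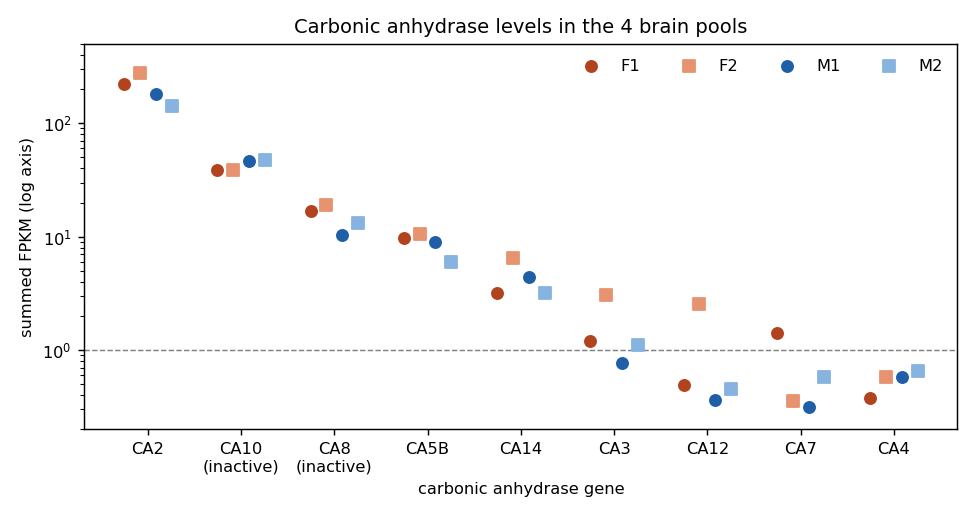
Summed FPKM (log axis) of the 9 carbonic anhydrase genes in the female pools F1 and F2 and the male pools M1 and M2, 1 point per pool, ordered by mean level, with a dashed line at 1 FPKM. *CA2* lies between 142 and 276 FPKM in every pool, whereas *CA12*, *CA7* and *CA4* lie mostly under 1 FPKM.

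The unigenes behind these sums differed in length and in the protein they matched. *CA2* rested on a single unigene of 1537 bp (comp196317_c0_seq1) whose best NR match was *CA2* of *Xenopus tropicalis*. *CA8* had 1 unigene of 3188 bp and *CA14* 1 of 3630 bp, both with a *Xenopus* match. The *CA5B* unigene of 1703 bp was called carbonic anhydrase 5A of *X. tropicalis* in NR and 5B of human in Swiss-Prot, so the symbol does not settle which mitochondrial form it is. Of the 14 unigenes, 11 best matched an amphibian protein.

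The family annotation did not separate the members by activity, and the enzyme terms were given to *CA8* as well as to the catalytic members. All 14 unigenes were placed in the carbonic anhydrase group of KOG. The GO term for carbonate dehydratase activity and the KEGG map of nitrogen metabolism were given to each of the 10 unigenes of catalytic members and to 1 of the 4 unigenes of inactive members. That unigene was *CA8*, which therefore carries the term although the protein is known to lack the activity. The other 3, all under *CA10*, had no GO term.

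For the comparison of the sexes, log2(summed FPKM + 0.5) of the 11975 gene sums with 1 FPKM or more in 2 or more pools was fitted with limma, and p values were adjusted by Benjamini-Hochberg over all of them. Differences are female minus male on that scale. Of the members, *CA2*, *CA3*, *CA5B*, *CA8*, *CA10* and *CA14* passed the filter and *CA4*, *CA7* and *CA12* did not. No member had an adjusted p under 0.05, and neither had any other gene sum (0% of those tested). Without M1 limma called 264 gene sums and without M2 also 264, with no member among them. The unadjusted p was under 0.05 for 3 of the 6 members, *CA2*, *CA8* and *CA10*, and for 12.4% (1486) of all gene sums. Both female pools lay above both male pools for 4 members (*CA2*, *CA3*, *CA5B* and *CA8*), against a background of 23.6%, and both pools of males exceeded both pools of females for *CA10*, against 20.9%. *CA3* overlapped between the sexes when *Gallus* and *Meleagris* matches were kept, and so did its *Xenopus*-matched unigene alone. No tested member was over 2-fold apart between the sexes on that scale, and the background was 1.62% for higher in females and 4.15% for higher in males. These were 194 and 497 gene sums. Among the 9941 tested with amphibian matches only, they were 117 and 119. The median difference of the 6 members was 0.51, against 0.02 over all gene sums.

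Among the catalytic members, *CA2* was higher in the female pools in every pairing of a female with a male pool. In mammals this fast cytosolic enzyme is found in oligodendrocytes, astroglia, the choroid plexus and red blood cells. *CA2* stood at 224 (F1) and 276 FPKM (F2), against 181 (M1) and 142 (M2). The gap between the highest male and the lowest female pool was about as wide as the gap between the pools of a sex. The means were 249.7 ± 36.6 FPKM in females and 162 ± 27.5 in males (SD, n = 2 pools each). The difference was 0.63 (SE 0.18), a 1.54-fold higher level in females, with an adjusted p of 0.303 in limma (unadjusted 0.0204). Without any 1 of the pools it lay between 0.45 and 0.80 and was not called.

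Marker genes of cell types that hold *CA2* in mammals differed in order between the sexes. For some, both female pools lay above both male pools, as for *CA2*. Of the 8 myelin genes looked for, 5 were found and all 5 had a higher mean in males, with the sum at 1275 (F1) and 1297 FPKM (F2) and at 1761 (M1) and 1343 (M2). Astroglial genes summed to 1483 and 1439 FPKM for females and 973 and 1097 for males, with both female pools higher as for *CA2*. Glutamine synthetase (*GLUL*) made up most of that sum, at 1005 and 982 FPKM in females and 556 and 619 in males, and the glutamate carrier *SLC1A3* was 240.4 and 217 FPKM against 180 and 197. Of the 6 astroglial genes *GFAP* was not found, and *AQP4* was under 2 FPKM in each pool. The glutamate carrier *SLC1A2* overlapped, at 20.9 and 14.4 FPKM in females and 11.9 and 15.4 in males. *FABP7* stood the other way, at 217 and 224 FPKM in females and 225 and 266 in males. The 5 of 6 choroid plexus genes that were found summed to 24.1 and 32.9 FPKM for females and 26.0 and 30.3 for males, and these overlapped. Their members differed. *TTR*, a carrier protein secreted by the choroid plexus in mammals, was 6.50 and 5.92 FPKM in females and 0.107 and 0.209 in males. It differed by 3.35 (SE 0.22, adjusted p = 0.0538 in limma). Some genes of blood plasma proteins outside this list, looked up after seeing the data, shared this order. *ALB* was 21.4 and 15.7 FPKM in females and 0.274 and 0.912 in males, and *AHSG* 5.29 and 3.63 against 0 and 0.224. *APOA2*, at 11.5 and 8.57 FPKM against 0 and 0.306, was also higher in both female pools. So were *APOB*, *APOC1*, *APOC3*, *APOE*, *APOF*, *APOH* and *AMBP*. Others, *AGT* and *A2M*, overlapped between the sexes. Whether *TTR* reflects choroid plexus in these pools was not tested. *CLIC6* was 1.84 and 3.94 FPKM in females and 1.80 and 1.56 in males, also in the order of *CA2*, while *OTX2*, which held most of the sum, was 15.2 and 20.5 in females and 23.2 and 27.2 in males.

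Globin unigenes did not all share an order. The 6 of 9 red blood cell symbols found, globins and others, summed to 283 (F1) and 226 FPKM (F2), against 71.9 (M1) and 24.3 (M2). In females a single *HBB* unigene held most of the sum, at 256 and 131 FPKM, against 1.18 and 2.19 in males. It matched turtle and chimpanzee globins. In males most of the sum was *ALAS2*, at 32.0 and 9.59 FPKM, and *SLC4A1*, at 31.0 and 9.57. Beta globin unigenes with a frog match were looked up after seeing the data, by a single frog record in NR (HBB_PELES). Other frog globin records were not searched. The most abundant unigene with this match (comp245525_c2_seq1), which has no symbol, had 1562 (F1) and 6391 FPKM (F2), against 8559 (M1) and 4962 (M2). It was lowest in F1, and the sexes overlapped. Another with this match (comp108456_c0_seq1) had 0 (F1) and 1.46 FPKM (F2), against 56.0 (M1) and 43.7 (M2). A scarce one (comp85189_c0_seq1) had 0.326 and 1.77 FPKM in females and 2.10 and 0.974 in males, and overlapped. Like comp245525_c2_seq1 and *SLC4A1*, it was highest in M1, then F2, M2 and F1. The part of glia, choroid plexus and blood in the *CA2* difference was not tested. In bulk tissue, fewer cells of a type and less RNA per cell cannot be told apart.

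*CA5B* also stood higher in both female pools. The mitochondrial enzyme supplies bicarbonate to carboxylating enzymes. Its values were 9.72 (F1) and 10.5 FPKM (F2) and 8.95 (M1) and 5.96 (M2), so M1 lay closer to the female pools than to M2. The difference was 0.44 (SE 0.23), with an adjusted p of 0.505 in limma. It was 0.72 without M1 and 0.17 without M2.

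The inactive members that were found stood in opposite orders in the sexes, and neither was called. *CA8*, which in mammals is abundant in Purkinje cells and binds the inositol trisphosphate receptor *ITPR1*, was 16.9 (F1) and 18.9 FPKM (F2) and 10.4 (M1) and 13.3 (M2). Both female values lay above both male values. The difference was 0.58 (SE 0.17), a 1.50-fold higher level in females, with an adjusted p of 0.296 in limma (unadjusted 0.0192). *ITPR1* was likewise higher in both female pools, at 35.1 and 25.2 FPKM against 22.4 and 21.3, differing by 0.44 (SE 0.19) with an adjusted p of 0.437. Of the other Purkinje cell genes, the calcium buffer *CALB1* was 8.80 and 17.7 FPKM in females and 14.2 and 10.1 in males, and overlapped. *RORA*, a nuclear receptor near the filter, was 1.25 and 1.13 FPKM in females and 1.10 and 0.663 in males, with both female pools higher as for *CA8*. *PCP2* and *PVALB* were not found by symbol, and the part of Purkinje cells in the *CA8* difference was not tested.

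*CA10* stood higher in both male pools, but not all of its unigenes shared this order. *CA10*, a secreted protein that in mammals binds neurexins at synapses, was 38.7 (F1) and 38.9 FPKM (F2) and 46.8 (M1) and 47.6 (M2). The pools of a sex differed by under 1 FPKM, and the difference was -0.28 (SE 0.09), with an adjusted p of 0.359 in limma (unadjusted 0.0345). The 7 of 8 neuron marker genes that were found summed to 1481 (F1) and 1164 FPKM (F2) and 1467 (M1) and 1431 (M2), so that the sexes overlapped, although all 6 tested ones had a higher mean in males. The part of neuron content in the *CA10* difference was not tested.

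By their NR match the 3 unigenes under *CA10* carried 2 names. A unigene of 5199 bp (comp231203_c2_seq2) best matched carbonic anhydrase-related protein 10 of an alligator. It was 20.0 (F1) and 21.0 FPKM (F2) and 21.6 (M1) and 21.0 (M2), with a difference of -0.05 (SE 0.11). The other abundant unigene, of 2362 bp (comp209104_c0_seq1), best matched related protein 11 of *X. tropicalis*, and its Swiss-Prot match was *CA10* of an orangutan. It was 18.7 and 18.0 FPKM for females and 25.0 and 26.3 for males. The third, of 455 bp, carried the same NR name and had 0 FPKM in F1 and F2 and 0.209 (M1) and 0.420 FPKM (M2). Split in this way, a choice made after seeing the data, the unigenes named related protein 11 differed by -0.49 (SE 0.11, adjusted p = 0.180 in limma, unadjusted 0.00737) and the one named related protein 10 by -0.05 (adjusted p = 0.878). The difference of the *CA10* sum thus sat in the unigenes that NR called related protein 11, the name of the *CA11* protein, to which the Swiss-Prot symbols assigned none. Whether the unigenes come from separate genes was not tested.

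**Figure D2:**
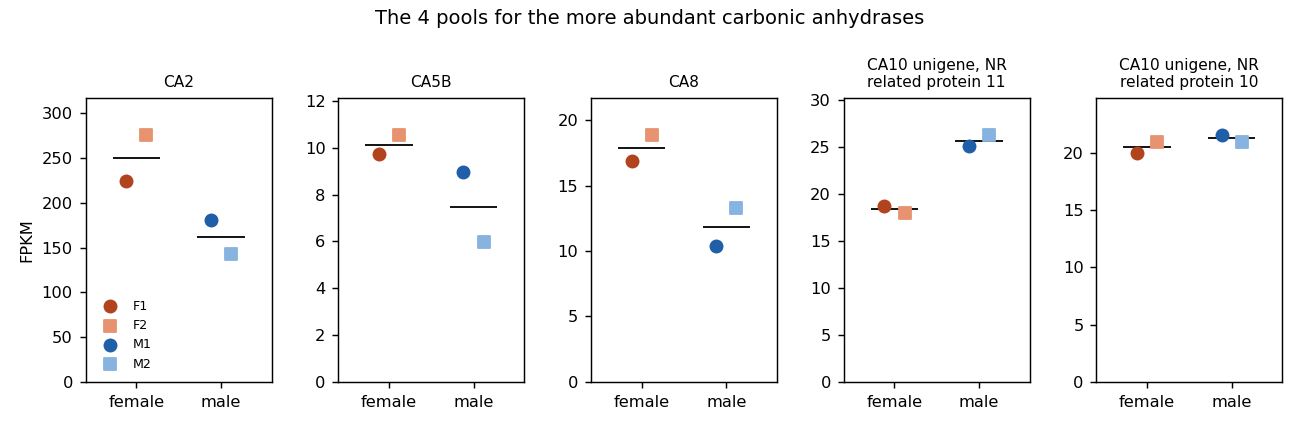
FPKM (linear axes from 0) of *CA2*, *CA5B*, *CA8* and the 2 abundant unigenes under *CA10*, with females left and males right, 1 point per pool and a line at the mean of each sex. Female points lie above male points for *CA2*, *CA5B* and *CA8* and below them for the unigene named related protein 11, while the unigene named related protein 10 stays between 20.0 and 21.6 FPKM.

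Neurexins are surface receptors to which *CA10* and *CA11* proteins bind in mammals. *NRXN2* was 65.2 (F1) and 56.2 FPKM (F2) and 68.3 (M1) and 82.1 (M2), differing by -0.31 (SE 0.14). *NRXN3* was 28.3 and 19.6 FPKM in females and 23.0 and 20.8 in males. *NRXN2* was higher in each male pool than in each female pool, *NRXN3* overlapped, and neither was called in limma.

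Inactive members held a smaller share of the FPKM summed over the members in each female pool than in each male pool. The catalytic members summed to 240.1 (F1) and 299 FPKM (F2), against 197 (M1) and 154 (M2). The inactive members summed to 55.6 and 57.8 FPKM for females and 57.2 and 60.9 for males. The inactive sum thus overlapped between the sexes while its parts *CA8* and *CA10* did not. The inactive share was 18.8% (F1) and 16.2% (F2), against 22.5% (M1) and 28.3% (M2), with means of 17.5% ± 1.9 in females and 25.4% ± 4.1 in males (SD, n = 2 pools each). Since *CA2* dominates the sum, the share was also taken without it: 77.3% and 71.0% for females and 78.8% and 83.6% for males. The other catalytic members together were 16.4 (F1) and 23.6 FPKM (F2) and 15.4 (M1) and 11.9 (M2). Among the members followed, the order of the sexes was thus the same without *CA2*, with F1 and M1 close together. These sums leave out *CA9* and *CA13*, which together held 0.457 (F1) and 6.64 FPKM (F2) and 6.06 (M1) and 1.90 (M2). With them counted as catalytic, the share without *CA2* is higher in F1 than in M1, so the sexes overlap. The female minus male difference of the share was -7.92 percentage points, and it was -10.8 without M1 and -5.05 without M2. These shares are sums over chosen members and carry no test.

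**Figure D3:**
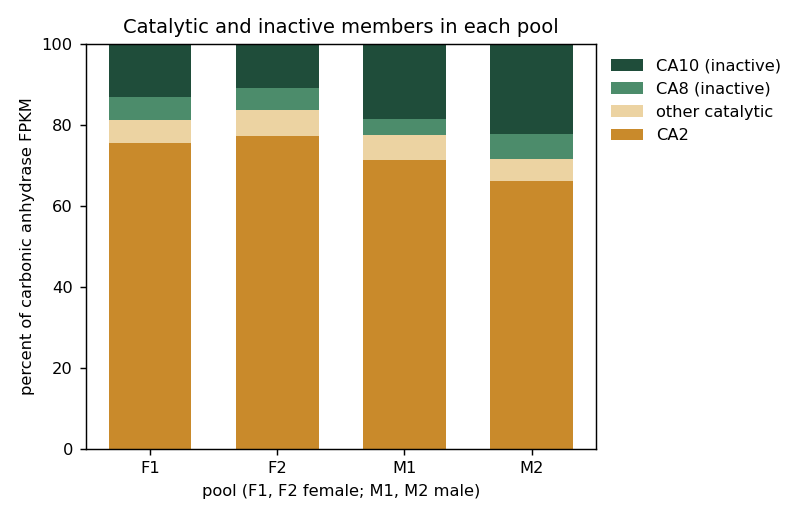
Share of the FPKM summed over the members followed (percent, stacked bars) held by *CA2*, the other catalytic members, *CA8* and *CA10* in the female pools F1 and F2 and the male pools M1 and M2. The inactive part at the top is 18.8% (F1) and 16.2% (F2) against 22.5% (M1) and 28.3% (M2).

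*CA14*, *CA12* and *CA4* work at the cell surface, with the active site facing outward, and *CA14* and *CA12* were highest in F2 alone. *CA14*, known from neurons and axons in mammals, was 3.16 (F1) and 6.46 FPKM (F2) and 4.41 (M1) and 3.20 (M2). The pools of the sexes overlapped, and F2 was 2.04 times F1. The difference was 0.25 (SE 0.37, adjusted p = 0.824 in limma), and it was -0.22 without F2. *CA12*, an enzyme of secretory epithelia in mammals, was 0.490 and 2.56 FPKM for females and 0.360 and 0.453 for males. F2 was 5.24 times F1, and both *CA12* unigenes were highest in F2, at 1.24 and 1.32 FPKM. *CA4*, an anchored enzyme of brain capillaries in mammals, was 0.381 and 0.575 FPKM in females and 0.577 and 0.647 in males, so that F2 and M1 were nearly equal. The 5 of 6 endothelial genes found summed to 84.1 and 78.6 FPKM in females and 89.8 and 86.5 in males. *SLC2A1* held most of that sum, at 75.0 and 65.8 FPKM in females and 76.6 and 79.9 in males. Among the 5, the mean was higher in females for 3 and in males for 2. *CA12* and *CA4* were below the filter and were not tested.

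The remaining cytosolic members were scarce. *CA7*, known from neurons of mammals, was 1.41 (F1) and 0.354 FPKM (F2) and 0.313 (M1) and 0.583 (M2), and so was highest in F1 and overlapped between the sexes. *CA3*, a slow enzyme that is abundant in skeletal muscle, summed to 1.20 (F1) and 3.06 FPKM (F2) and 0.766 (M1) and 1.10 (M2). Its difference was 0.79 (SE 0.43, adjusted p = 0.533 in limma), and it was 1.32 without F1 and 0.25 without F2. After 0.5 was added, it was the only tested member over 2-fold apart between pools of a sex. It was over 2-fold higher in F2 than in F1, which held for 5.28% of all gene sums, while 0.969% were over 2-fold higher in F1 than in F2 and 4.13% were over 2-fold apart between M1 and M2. These comparisons of single pools have no replicates and were not tested.

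The sum of *CA3* mixed unigenes with unlike patterns. The unigene with a *Xenopus* match (1764 bp) was 0.398 (F1) and 2.27 FPKM (F2) and 0.399 (M1) and 0.320 (M2), and was thus high in F2 alone. A unigene of 999 bp that best matched *CA3* of a swift in NR and of mouse in Swiss-Prot was 0.798 and 0.792 FPKM for females, and 0 and 0.0496 for males. Another of 348 bp that best matched a bustard had 0 FPKM in F1 and F2 and 0.367 and 0.732 FPKM for males. Only through these bird-matched unigenes did *CA3* pass the filter, as the *Xenopus*-matched one reached 1 FPKM in F2 alone. Muscle creatine kinase (*CKM*) was also highest in F2, at 0.875 (F1) and 244 FPKM (F2) and 2.39 (M1) and 8.80 (M2). Of the other muscle genes found, *MYLPF*, *TNNI2* and *ACTA1* were highest in F2 too. The scarce *TNNT3*, *ATP2A1* and *MYH1* were highest in M1 (0.572 FPKM), M2 (1.34) and F1 (0.583). The part of muscle RNA in the *CA3* values was not tested.

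**Figure D4:**
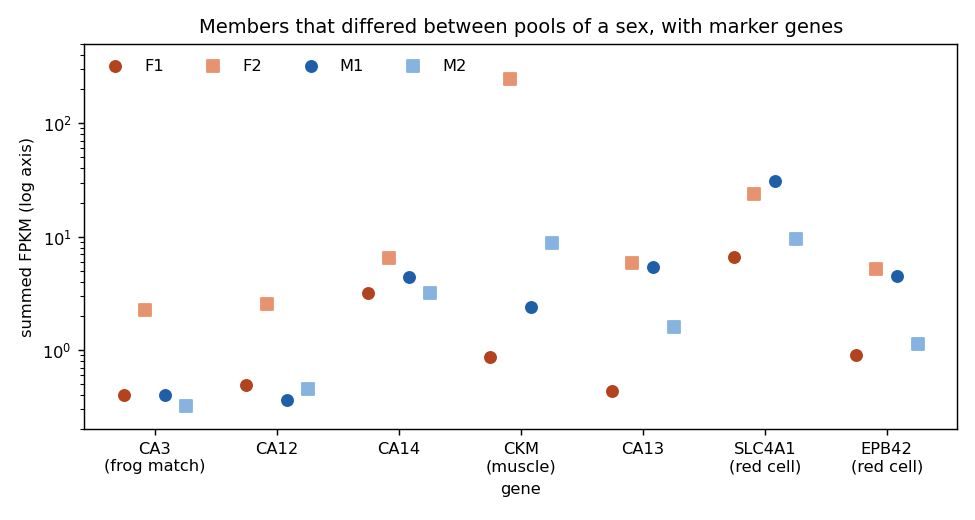
Summed FPKM (log axis) of the *Xenopus*-matched *CA3* unigene, *CA12*, *CA14*, *CKM* of skeletal muscle, *CA13* and the red blood cell genes *SLC4A1* and *EPB42* in F1, F2, M1 and M2, 1 point per pool. *CA3*, *CA12*, *CA14* and *CKM* are highest in F2, and *CA13*, *SLC4A1* and *EPB42* are each higher in F2 and M1 than in F1 and M2. Other genes of the skeletal muscle and red blood cell lists are not shown, and some of them stood in other orders. Some genes outside the red blood cell list, such as *POMC*, also stood in the order of *CA13* and are not shown.

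A dropped unigene was small beside *CA2* but not beside *CA3*. A *Gallus*-matched *CA2* unigene of 1451 bp had 0 FPKM in F1 and F2 and 0.414 (M1) and 0.826 FPKM (M2). A *Meleagris*-matched *CA3* unigene of 327 bp also had 0 FPKM in F1 and F2, with 0.517 (M1) and 0.513 (M2). With unigenes of these matches kept, *CA2* differed by 0.62. The *CA3* sum then was 1.20 (F1) and 3.06 FPKM (F2) and 1.28 (M1) and 1.62 (M2), so the sexes overlapped, and the difference was 0.34.

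Genes that move bicarbonate, protons and lactate across membranes, the partners of these enzymes, showed no common direction. Of the 22 looked for, 20 were found and 15 tested, and none was called in limma. The mean was higher in females for 8 and in males for 7, with a median difference of 0.09 against 0.02 over all gene sums. Both female pools lay above both male pools for 5 (background 23.6%) and the reverse held for 2 (background 20.9%). The abundant *BSG*, a chaperone of lactate carriers, was 299.9 (F1) and 304 FPKM (F2) and 279.6 (M1) and 289.5 (M2). The chloride exporter *SLC12A5* of neurons was 94.4 and 81.2 FPKM for females and 106.6 and 94.0 for males, and these overlapped.

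The sodium-coupled bicarbonate carriers of the list, grouped after their values were seen, differed in order, and none was called. *SLC4A10*, a carrier of neurons and choroid plexus, was 54.5 (F1) and 39.4 FPKM (F2) and 31.5 (M1) and 34.8 (M2), differing by 0.48 (SE 0.19, adjusted p = 0.414 in limma). *SLC4A8*, a carrier of presynaptic endings, was 46.7 and 33.5 FPKM against 31.6 and 31.2, and *SLC4A4*, the carrier of astroglia, was 26.5 and 26.0 against 23.6 and 18.8. For each of these 3 both female pools lay above both male pools. *SLC4A5*, also such a carrier, was 1.91 and 2.30 FPKM in females and 0.330 and 3.25 in males, and overlapped. *SLC4A2*, an anion exchanger found in many cell types, was 19.0 and 24.6 FPKM in females and 28.4 and 22.2 in males, and overlapped. *SLC4A7*, another sodium-coupled carrier, stood the other way at 1.37 and 1.60 FPKM in females and 2.23 and 2.65 in males, and the lactate carrier *SLC16A3*, the only tested gene of the list with an unadjusted p under 0.05 (adjusted p = 0.328 in limma), was 23.1 and 23.7 FPKM in females and 18.3 and 18.5 in males. *SLC4A5*, *SLC4A7* and *SLC16A3* were named after their values were seen.

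**Figure D5:**
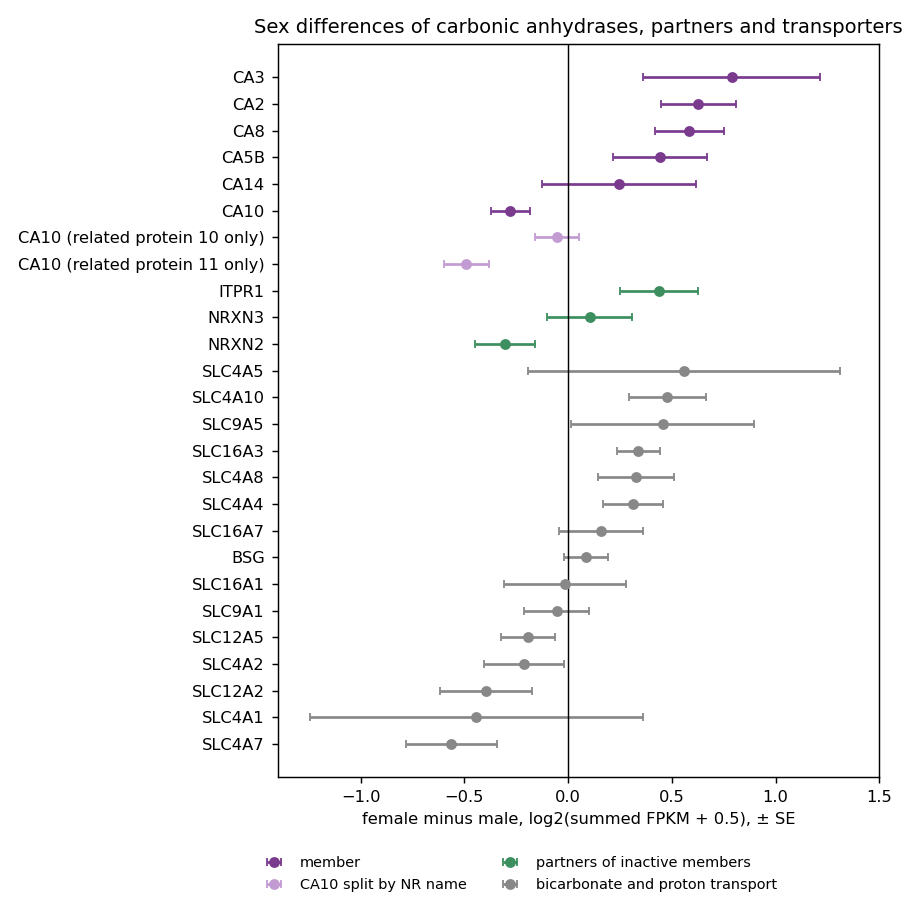
Female minus male difference of log2(summed FPKM + 0.5) with its SE for the 6 tested members, for *CA10* split by NR name, for *ITPR1*, *NRXN2* and *NRXN3*, and for 15 transport genes, with a line at 0. *CA2* (0.63) and *CA8* (0.58) lie on the female side and *CA10* (-0.28) on the male side, and no point passed an adjusted p of 0.05 in limma.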

How the data were processed

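Polyadenylated brain RNA of 4 pools was sequenced. FPKM values per unigene and pool came from the authors, after Trinity and TGICL assembly and Bowtie2 alignment according to the study's methods. The labels name cutadapt, FastQC, Salmon and edgeR, without versions. FPKM values were fractional estimates, so reads could not be recovered and counting errors could not be given. The table sums to between 669260 and 717478 FPKM per pool.

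Symbols were read from the Swiss-Prot description in upper case without a final -a or -b, which gave 35944 unigenes a symbol, and 4901 of these were dropped for a *Gallus* or *Meleagris* match. Gene sums with 1 FPKM or more in 2 or more pools entered limma 3.58.1 in R 4.3.3 (log2(FPKM + 0.5), sex as the only term, eBayes with trend), which left 2 residual degrees of freedom. The threshold was an adjusted p (Benjamini-Hochberg) of 0.05. The fit was tested on simulated data. An exact permutation of 2 pools against 2 cannot go below p = 0.33. Figures and sums were made with Python 3.11.15, pandas 2.3.3 and matplotlib 3.10.9. The members and gene lists were chosen with earlier results of these data known. Named were all members, partners of the inactive members, and from the transport list up to 6 genes of highest mean FPKM; marker genes are named beside the results they touch. Some genes of these lists are not reported here. The pools carry replicate numbers, but nothing says that equal numbers share an origin. Alternatives are given in the closing section. No unigene sequences were used here.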

Additional observations from a re-analysis of the deposited data

How the results depend on the processing

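No member was called under any alternative, and all kept their direction except *CA14* (-0.22 without F2, 0.71 without F1). *CA2* ranged from 0.45 to 0.80, *CA8* from 0.42 to 0.75 and *CA10* from -0.49 to -0.05, with adjusted p from 0.180 to 0.878 for *CA10*. *CA3* could not be tested with 1 unigene per gene, amphibian matches only or a mean of at least 5 FPKM, nor *CA14* with the last. Over all gene sums limma called 305 with 0.1 added before the logarithm, 289 without a trend, 32 with 1 unigene per gene, 371 with *Gallus* and *Meleagris* matches kept, and 0 to 264 without a single pool (264 without M1 and 264 without M2). Among single unigenes it called 0 (6238 at an unadjusted p under 0.05), and 0 to 1385 without a single pool (1373 without M1, 1385 without M2). Over 2-fold higher in females were 467 without a filter, 87 at a mean of at least 5 FPKM, 117 with amphibian matches only and 215 to 415 without a single pool (415 without F1, 335 without M1), against 194; higher in males were 1519, 60 and 119 in the first 3 of these, against 497. With the replicate block 0 gene sums were called, and 1012 had an unadjusted p under 0.05. Deviations of F1 and M1 from their sex means had a correlation of -0.25 over gene sums, and a block that pairs F1 with M2, added after seeing the data, called 37. The inactive share kept its direction throughout (-7.92 percentage points as reported, -10.8 without M1 to -5.05 without M2). The cause of these changes was not tested.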

Other observations

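Of 7 further carbonic anhydrase symbols looked for, only *CA9* and *CA13* were found. *CA13*, a cytosolic enzyme, summed to 0.433 (F1) and 5.81 FPKM (F2) and 5.37 (M1) and 1.60 (M2), differing by -0.54 (SE 1.05, adjusted p = 0.875 in limma). The scarcer *CA13* unigene (comp132705_c0_seq1) best matched carbonic anhydrase 1 of *Rana catesbeiana* in NR. It was 0 and 0.138 FPKM in females and 0.786 and 0.276 in males. In the *CA13* sum, a single pool of each sex was thus high. The red blood cell genes *SLC4A1*, the chloride-bicarbonate exchanger of the cell membrane, and *EPB42*, which anchors it, were high in the same pools: *SLC4A1* was 6.64 and 23.6 FPKM for females and 31.0 and 9.57 for males, and *EPB42* was 0.908 and 5.15 against 4.49 and 1.13. *ALAS2*, which starts heme synthesis in red cells, was 13.7 and 61.2 FPKM against 32.0 and 9.59. The other red blood cell symbols found were not high in F2 and M1 alone. *GYPC* was 3.68 and 5.28 FPKM against 3.21 and 1.78, and *HBB*, with turtle and chimpanzee matches, 256 and 131 against 1.18 and 2.19. *HBA* was above 0 in F1 alone, at 2.39 FPKM. Among the beta globin unigenes with a frog match, which have no symbol, comp245525_c2_seq1 was 1562 and 6391 FPKM against 8559 and 4962. It was highest in M1, then F2, M2 and F1, as were *SLC4A1* and the scarce comp85189_c0_seq1. Unlike these, comp108456_c0_seq1 was 0 and 1.46 FPKM against 56.0 and 43.7. *CA2*, the enzyme of mammalian red cells, did not share the order of *CA13* either, at 224 and 276 FPKM against 181 and 142. Genes outside the red blood cell list stood in the order of *CA13* too. *POMC* of the pituitary was 46.2 and 1378 FPKM in females and 1061 and 169 in males. *PRL*, *GH* and *CGA*, however, were lower in M1 than in M2. *AHNAK*, which is in none of the lists and was looked up after seeing the data, was 8.55 and 31.8 FPKM against 35.6 and 10.4. The part of blood in the *CA13* values was not tested. *CA9* stayed under 1 FPKM in each pool.

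Outside the animal symbols, 6 unigenes had an Arabidopsis carbonic anhydrase as their Swiss-Prot match. All 6 had 0 FPKM in F1 and F2, and 5 were above 0 in M1 and 5 in M2, with 1.34 FPKM as the highest value. Over the whole table, 136730 (F1) and 134587 (F2) unigenes were above 0, against 151756 (M1) and 148985 (M2). Among the gene sums tested, most other Arabidopsis symbols of the form of *AT2G03931* (8.44 in M1 and 8.59 in M2) also had 0 FPKM in both female pools. Of these symbols *AT1G69410* alone had 0 FPKM in both male pools, with 1.08 and 1.18 in females. The share of all unigenes with 0 FPKM in both female pools was not taken.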
